A study of Homo sapiens with 18 samples.

Results

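The genes of the NF-kB transcription factor and of its feedback loop were followed in 4 histone modifications: the subunits NFKB1, RELA, REL, NFKB2 and RELB, the inhibitors NFKBIA and NFKBIE, the ubiquitin regulators TNFAIP3 and BIRC3, and the cytokine gene TNF. These 10 genes, of 20020 protein-coding genes in the annotation, were chosen by name. Each gene was represented, per modification, by the listed interval with the highest mean count over the 4 libraries that lay no more than 2 kb from any of its transcription start sites (TSS). The data are Cut&Tag libraries, in which an antibody directs a transposase to the chromatin that carries a modification, from MOLM-13 cells, an established line of human acute myeloid leukemia with a rearranged KMT2A gene. Cells received 100 nM PR-957 (ONX-0914), an inhibitor of the immunoproteasome, or its diluent DMSO, for 72 h per the labels. Each treatment had 2 libraries for H3K4me3, H3K27ac, H3K4me1 and H3K27me3, 16 in all. The labels do not say whether the replicates were separate cultures, so p-values measure only the spread between these libraries, which may be technical. Every library came from this single cell line.

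NF-kB is a family of dimers that IkB proteins such as those made from NFKBIA and NFKBIE hold in the cytoplasm. In the canonical branch, signals from cytokine receptors lead to destruction of the IkB protein by the proteasome and release dimers of the NFKB1, RELA and REL products. In the non-canonical branch, the NFKB2 product is processed by the proteasome and partners with RELB. Released dimers switch on the genes of their own inhibitors, among them NFKBIA and TNFAIP3. H3K4me3 and H3K27ac mark active promoters, H3K4me1 marks enhancers and the flanks of promoters, and H3K27me3 is laid down by Polycomb at silent genes.

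Sequences at these promoters that match the binding consensus of NF-kB are shown first. The kappa B consensus decamer was searched on both strands in 300-base promoter windows from RefSeq, and 5.91% of 35116 windows of all genes held a match. A window was listed for 8 of the 10 genes, not for RELB or NFKBIE. With 1 window per gene, the one nearest the canonical TSS, 6 of the 8 held at least 1 match. The stretches below run 5′ to 3′ on the gene's strand (hg38), with matches in capitals. The match is a description of the letters and says nothing of binding in these cells.
NFKB1, chr4:102501270-102501358, plus strand: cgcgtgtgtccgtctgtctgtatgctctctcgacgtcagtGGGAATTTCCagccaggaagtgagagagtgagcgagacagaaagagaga
REL, chr2:60881518-60881546, plus strand: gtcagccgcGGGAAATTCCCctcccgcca
NFKB2, chr10:102395489-102395704, plus strand: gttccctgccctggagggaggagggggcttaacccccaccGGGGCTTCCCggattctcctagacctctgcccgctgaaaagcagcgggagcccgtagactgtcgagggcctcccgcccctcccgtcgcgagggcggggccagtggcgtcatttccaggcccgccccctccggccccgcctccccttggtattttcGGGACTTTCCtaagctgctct
NFKBIA, chr14:35404781-35404870, minus strand: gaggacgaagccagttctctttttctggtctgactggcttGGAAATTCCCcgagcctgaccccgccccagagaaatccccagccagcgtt
TNFAIP3, chr6:137867162-137867243, plus strand: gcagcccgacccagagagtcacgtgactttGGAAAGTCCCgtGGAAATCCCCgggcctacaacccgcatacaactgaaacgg
BIRC3, chr11:102317245-102317398, plus strand: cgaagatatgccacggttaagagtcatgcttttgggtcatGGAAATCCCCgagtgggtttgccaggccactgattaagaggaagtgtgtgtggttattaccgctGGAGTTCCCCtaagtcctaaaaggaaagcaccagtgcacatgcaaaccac
In bases from the TSS of the window, the matches began at -49 in NFKB1, at -81 in NFKBIA, at -67 and -55 in TNFAIP3, at -176 and -21 in NFKB2, and at -199 and -135 in BIRC3. The REL matches, at -47 and -46, overlap in 1 run. No match to these letters lay in the windows of RELA and TNF.

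Total counts over the listed intervals ran from 9885836 to 14165777 for H3K27ac, from 10032503 to 12047958 for H3K27me3, from 15204186 to 30584219 for H3K4me1 and from 30070119 to 44591150 for H3K4me3. In H3K4me1 and H3K4me3 both PR-957 libraries were shallower than both DMSO libraries. Intervals of a list can overlap, so 1 read can count more than once in these totals. The labelled cell type was checked by promoter intervals of marker genes. In H3K27ac, 11 of 12 myeloid markers had a promoter interval (CD14 had none), against 1 of 6 T cell markers, 4 of 6 B cell markers, 0 of 6 erythroid and megakaryocytic markers and 2 of 6 markers of non-blood tissue. H3K4me3 separated the classes less, with intervals at 11 of 12 myeloid markers (MPO had none), 2 of 6 T cell, 3 of 6 B cell, 2 of 6 erythroid and megakaryocytic and 4 of 6 non-blood markers. In H3K4me1 they were 12 of 12 and, in the same order, 4, 4, 2 and 4 of 6. The median H3K4me1 level in DMSO was higher at the non-blood than at the myeloid markers with an interval. In H3K27me3 the counts were 0 of 12 and 2, 2, 2 and 4 of 6.

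In DMSO, the NF-kB genes carried marks of active promoters at very different levels. An H3K4me3 interval was listed for 9 of the 10 genes, an H3K27ac interval for 8, an H3K4me1 interval for 5 and an H3K27me3 interval for 2. Over all protein-coding genes the shares with an interval were 63.9%, 60.4%, 43.5% and 19.9%. Levels are given below as CPM (counts scaled to the TMM-adjusted library total) per kb of the interval, with the percentile among all genes that have an interval. The median of those genes was 4.59 CPM per kb for H3K4me3 and 3.99 for H3K27ac.

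Among the canonical subunits, NFKB1, which encodes the p105 precursor of p50, was highest. Its H3K4me3 level in DMSO was 10.3 and 10.5 CPM per kb in replicates 1 and 2 (mean at percentile 97.5), and its H3K27ac level was 16.88 and 16.01 (percentile 98.3). REL, which encodes the c-Rel subunit of blood cells, had H3K4me3 at 8.88 and 8.47 CPM per kb (percentile 93.4) and H3K27ac at 9.25 and 11.4 (percentile 91.6). RELA, which encodes the p65 subunit, lay near the middle of all genes, with H3K4me3 at 4.96 and 4.67 CPM per kb (percentile 53.6) and H3K27ac at 3.13 and 3.82 (percentile 42.2). Per kb, the order NFKB1, REL, RELA held in both marks in each DMSO replicate. In H3K4me3 the order of NFKB1 and REL depended on interval width, 3372 bp for NFKB1 and 3993 bp for REL. Not divided by width, DMSO replicates 1 and 2 had 34.8 and 35.5 CPM for NFKB1 and 35.4 and 33.8 for REL. The 3 canonical subunits all lacked an H3K4me1 interval in the window. The nearest one lay 21.6 kb from the TSS of NFKB1, 12.1 kb from that of REL and 7.28 kb from that of RELA.

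The non-canonical subunits lay below NFKB1 and REL in both marks and carried some H3K4me1. NFKB2, which encodes the p100 precursor of p52, had H3K4me3 at 6.02 and 6.20 CPM per kb (percentile 72.8) and H3K27ac at 3.20 and 4.01 (percentile 44.1). RELB had H3K4me3 at 3.58 and 3.94 CPM per kb (percentile 36.5) and H3K27ac at 5.25 and 5.54 (percentile 66.3). RELB thus stood below NFKB2 in H3K4me3 and above it in H3K27ac, in both replicates. Their H3K4me1 intervals were thin, with 40 and 50 counts in DMSO for NFKB2 and 43 and 46 for RELB. NFKB2 also had a short H3K27me3 interval 635 bp from its nearest TSS, with 2 and 5 counts in DMSO and 5 and 16 with PR-957, which did not pass the filter on low counts.

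Both IkB genes carried H3K4me3, H3K27ac and H3K4me1 intervals. NFKBIA, which encodes IkB alpha, had H3K4me3 at 4.25 and 4.59 CPM per kb (percentile 47.3), H3K27ac at 5.91 and 5.71 (percentile 70.1), and an H3K4me1 interval of 10566 bp that covered the whole gene. NFKBIE, which encodes IkB epsilon, had more H3K4me3, at 8.69 and 9.61 CPM per kb (percentile 95.1). The H3K27ac interval that represented NFKBIE, chr6:44244159-44260552, is 16393 bp wide, touches the gene at an alternative TSS and also covers the TSSs of HSP90AB1 and SLC35B2. A narrower one over the canonical TSS, chr6:44261295-44266102, had 197 and 129 counts in DMSO, or 3.10 and 2.71 CPM per kb (percentile 32.7). NFKBIE was the only gene of the 10 with a deep H3K27me3 interval in the window, chr6:44267345-44283760, at 8.72 and 9.24 CPM per kb in DMSO (percentile 90.5). That interval begins 1558 bp beyond the nearest NFKBIE TSS and covers the TSS of the neighbour TMEM151B.

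The feedback genes with roles in ubiquitin chains differed most from each other. TNFAIP3 encodes A20, which removes and edits ubiquitin chains on signalling complexes, and had H3K4me3 at 7.47 and 8.03 CPM per kb (percentile 88.5) in an interval of 7327 bp. Its H3K27ac level was 4.79 and 5.72 CPM per kb (percentile 65.0), and an H3K4me1 interval of 11394 bp lay over its gene body. BIRC3 encodes cIAP2, a ubiquitin ligase at the TNF receptor. Its H3K4me3 interval held 113 and 90 counts in DMSO, or 1.34 and 1.15 CPM per kb (percentile 8.98), and it had no interval in any other modification. The nearest H3K27ac interval lay 28.7 kb away and the nearest H3K4me1 interval 48.2 kb away. BIRC3 was the lowest in H3K4me3 of the 9 genes with an interval, in each of the 4 libraries.

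TNF had no interval in any modification, and this cannot be read as absence of the marks. The H3K4me3 list holds no interval on chromosome 6 between 28492375 and 33569329, a stretch of 5.08 Mb with 183 protein-coding genes of which 0 had an interval. The lists for H3K27ac and H3K4me1 break off over nearly the same stretch, and the H3K27me3 list between 29887042 and 32663914. TNF lies inside all of these gaps and is not analysed further here.

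**Figure D1:**
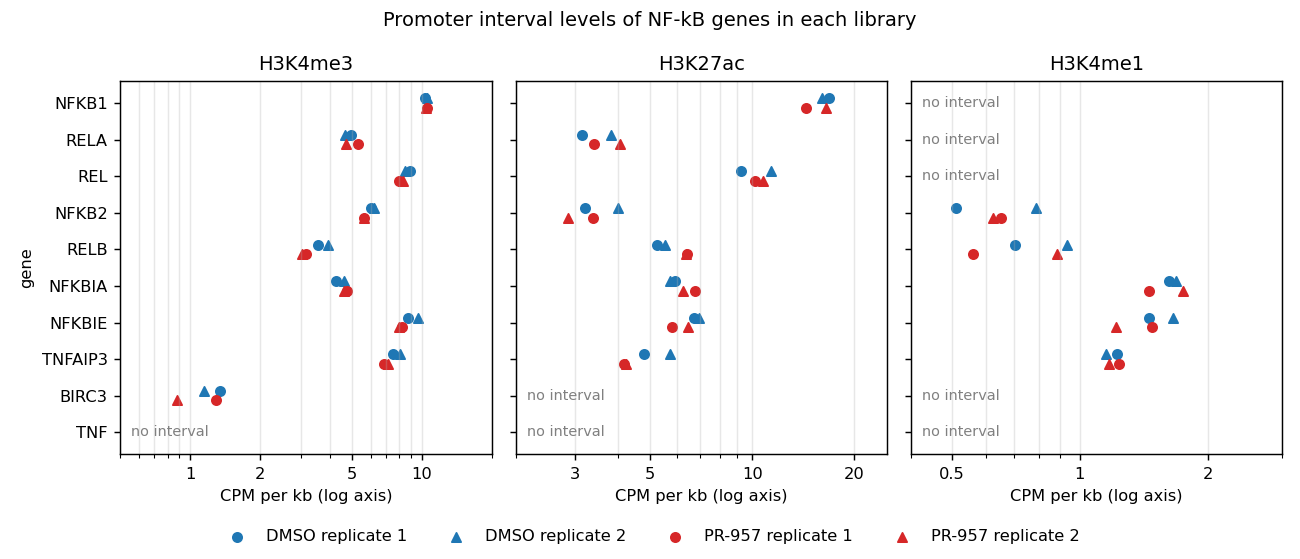
Level of H3K4me3, H3K27ac and H3K4me1 at the interval that represents each gene, in CPM per kb on a log axis, with 1 point per library (blue, DMSO; red, PR-957; circles, replicate 1; triangles, replicate 2). NFKB1 was highest in H3K4me3 and H3K27ac and BIRC3 lowest in H3K4me3, while the blue and red points of most genes lay close together; TNF had no interval.

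**Figure D2:**
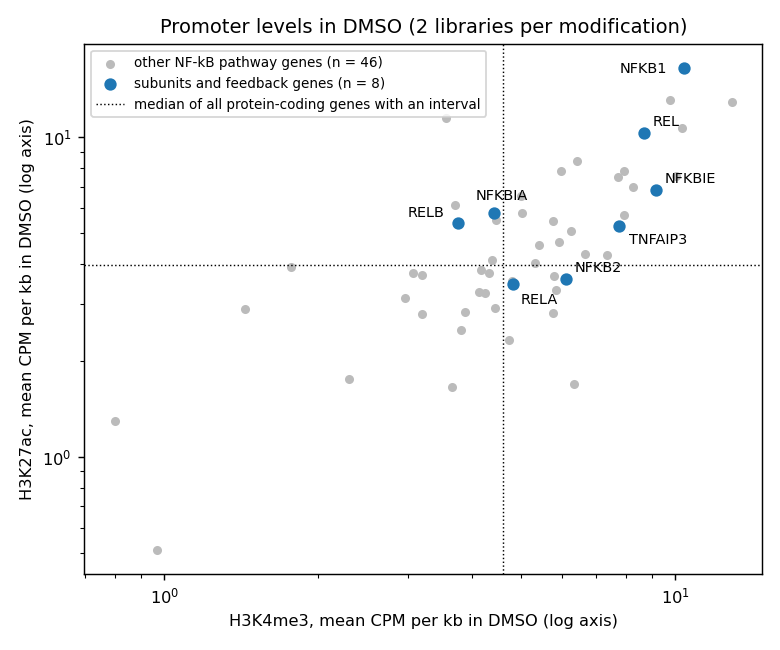
Mean level of H3K4me3 (x axis) against H3K27ac (y axis) in DMSO, in CPM per kb on log axes, for the 8 NF-kB genes with both intervals (blue) and 46 other genes of the pathway (grey); dotted lines are the medians of all protein-coding genes with an interval. NFKB1 and REL lie at the upper right, and RELA and NFKB2 lie below the H3K27ac median. The NFKBIE point uses the wide H3K27ac interval shared with HSP90AB1 and SLC35B2, and over its canonical TSS the level was 2.90 CPM per kb.

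Genes with the most similar DMSO profile over the 4 modifications are given for 2 of the genes, by Euclidean distance of log2 (CPM per kb + 1) over the means of 2 libraries. For NFKB1 they were E2F3 (0.059) and CHD1 (0.064). For REL they were SIAH2 (0.022) and TASOR (0.025). A modification without an interval counted as 0 in this distance. Like NFKB1 and REL, these genes had no H3K4me1 or H3K27me3 interval in the window, a likeness that this rule favours.

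The effect of PR-957 was then compared at each promoter, to ask whether inhibition of the immunoproteasome altered the histone marks of NF-kB genes. No member passed in any modification at an adjusted p of 0.05 in edgeR's quasi-likelihood test, with 9 tested in H3K4me3, 8 in H3K27ac, 5 in H3K4me1 and 1 in H3K27me3. The same test called 0.226% of all tested intervals in H3K4me3, 0.238% in H3K27ac, 1.94% in H3K4me1 and 5.92% in H3K27me3. At these shares a count of 0 among so few genes is close to the background. DESeq2 gave an adjusted p to 9, 2, 5 and 1 of these genes and called 0, against 0.0622%, 2.28%, 0.0245% and 19.6% of all intervals with one. At an unadjusted p under 0.05, 3 of 9 genes passed in H3K4me3 (7.52% of all intervals), 1 of 8 in H3K27ac (8.01%), 0 of 5 in H3K4me1 (16.2%) and 0 of 1 in H3K27me3 (15.6%). Per-library values below are CPM in the order DMSO replicates 1 and 2, then PR-957 replicates 1 and 2.

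In H3K4me3 the canonical subunits moved little. NFKB1 had 34.8, 35.5, 35.4 and 34.9 CPM, a log2 fold change of 0.00081 ± 0.075 (SE; 95% interval -0.15 to 0.15, edgeR adjusted p = 0.999). The libraries of both treatments overlapped. RELA had 21.9, 20.6, 23.4 and 20.7 CPM, again overlapping, with a log2 fold change of 0.05 ± 0.083 (-0.11 to 0.22, edgeR adjusted p = 0.943). REL had 35.4, 33.8, 31.7 and 33.0 CPM, with both PR-957 libraries below both DMSO libraries and a log2 fold change of -0.10 ± 0.076 (-0.25 to 0.05, edgeR adjusted p = 0.840). For these 3 genes the intervals leave room for a change of at most 0.25 on the log2 scale in either direction.

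The largest difference in H3K4me3 was at RELB, the partner of p52. RELB had 12.6 and 13.9 CPM in DMSO and 11.2 and 10.8 CPM with PR-957. Both treated libraries lay below both controls, and the log2 fold change was -0.27 ± 0.11 (SE; 95% interval -0.48 to -0.07), beyond the 5th percentile of all tested intervals (-0.23). Its unadjusted p was 0.0093 and its edgeR adjusted p 0.415, so the difference did not hold after adjustment. NFKB2 had 28.7 and 29.6 CPM in DMSO and 26.8 and 26.8 CPM with PR-957, without overlap, and a log2 fold change of -0.12 ± 0.078 (edgeR adjusted p = 0.790).

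The inhibitors went opposite ways in H3K4me3, and neither passed. NFKBIA had 22.5, 24.3, 25.2 and 24.3 CPM, the lower treated library lying only just above the higher control, and a log2 fold change of 0.08 ± 0.081 (edgeR adjusted p = 0.891). NFKBIE had 40.1, 44.3, 37.8 and 36.7 CPM, without overlap, and a log2 fold change of -0.18 ± 0.074 (-0.33 to -0.04, unadjusted p = 0.0146, edgeR adjusted p = 0.487). TNFAIP3 had 54.7, 58.9, 50.2 and 52.3 CPM, also without overlap, and a log2 fold change of -0.15 ± 0.071 (-0.29 to -0.01, unadjusted p = 0.0363, edgeR adjusted p = 0.622). BIRC3 had 2.53, 2.16, 2.43 and 1.65 CPM, where the treatments overlapped, and a log2 fold change of -0.20 ± 0.30 (-0.78 to 0.38, edgeR adjusted p = 0.939). The wide interval for BIRC3 goes with its count of 50 to 113 reads per library.

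Over the 9 genes, 6 log2 fold changes in H3K4me3 were below 0 and 3 above, with a median of -0.12 against -0.0010 over all tested intervals. Both PR-957 libraries lay below both DMSO libraries in 5 of 9 genes and above in 1, while over all tested intervals 18.4% lay below and 18.1% above. The 3 genes with an unadjusted p under 0.05 rested on DMSO replicate 2. Without it edgeR gave -0.20 for RELB (unadjusted p = 0.135), -0.11 for NFKBIE (0.268) and -0.095 for TNFAIP3 (0.312). TNFAIP3 also lost it without PR-957 replicate 1 (0.138) and NFKBIE without PR-957 replicate 2 (0.0655). Both PR-957 libraries were also the shallower ones in H3K4me3, and the part of depth in these differences was not tested.

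H3K27ac did not follow the same order. RELB had 19.3 and 20.4 CPM in DMSO and 23.6 and 23.5 CPM with PR-957, with both treated libraries above both controls and a log2 fold change of 0.25 ± 0.13 (-0.01 to 0.52, unadjusted p = 0.0614, edgeR adjusted p = 0.656). NFKBIA had 19.3, 18.7, 22.1 and 20.3 CPM, also without overlap, and a log2 fold change of 0.16 ± 0.14 (-0.12 to 0.43, edgeR adjusted p = 0.862). RELB is thus the 1 gene with no overlap in both marks and opposite signs, lower in H3K4me3 and higher in H3K27ac, and the difference between the marks was not tested. TNFAIP3 had 16.04, 19.2, 14.0 and 14.2 CPM, both treated libraries below both controls, with a log2 fold change of -0.31 ± 0.16 (-0.62 to 0.00037, unadjusted p = 0.0503, edgeR adjusted p = 0.624). TNFAIP3 and NFKBIE were lower without overlap in both marks.

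The NFKBIE interval in H3K27ac had 110.5, 113.8, 95.002 and 106.1 CPM and a log2 fold change of -0.15 ± 0.060 (-0.27 to -0.04, unadjusted p = 0.0106, edgeR adjusted p = 0.417). Without PR-957 replicate 1 edgeR gave -0.078 (unadjusted p = 0.274). Both values belong to the shared 16393-bp interval, and over the canonical NFKBIE TSS the CPM were 14.9, 13.01, 11.9 and 13.5, which overlap. The canonical subunits stayed within their spread: NFKB1 with 48.1, 45.7, 41.0 and 47.0 CPM (-0.09 ± 0.090, edgeR adjusted p = 0.888), RELA with 16.2, 19.8, 17.6 and 21.0 CPM (0.12 ± 0.15, edgeR adjusted p = 0.912). REL had 31.9, 39.1, 35.0 and 37.2 CPM (0.04 ± 0.10, edgeR adjusted p = 0.972). NFKB2 had 10.4, 13.1, 11.1 and 9.36 CPM (-0.20 ± 0.19, edgeR adjusted p = 0.864). Over the 8 genes the median was -0.03, with 4 below 0 and 4 above, and 2 lay higher and 2 lower without overlap, where all tested intervals gave 18.1% and 18.8%.

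**Figure D3:**
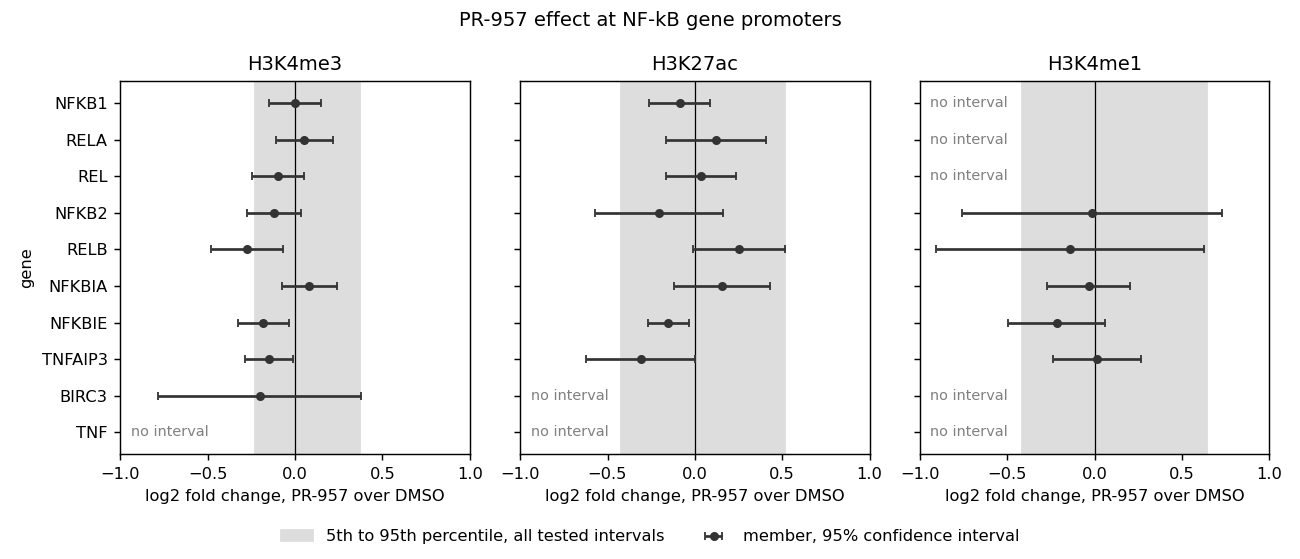
Log2 fold change of PR-957 over DMSO at each gene for H3K4me3, H3K27ac and H3K4me1 (points) with its 95% confidence interval (bars); the grey band runs from the 5th to the 95th percentile of all tested intervals of that modification. In H3K4me3 only RELB, at -0.27, lies outside the band, and none of the genes passed the test.

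In H3K4me1 the 5 genes with an interval all had overlapping treatments, where 23.5% of all tested intervals were higher and 23.2% lower without overlap. NFKBIE had 10.7, 12.2, 10.8 and 8.96 CPM, the largest difference of the 5 at -0.22 ± 0.14 (edgeR adjusted p = 0.450). NFKBIA had 17.1, 17.8, 15.4 and 18.4 CPM (-0.03 ± 0.12, edgeR adjusted p = 0.919) and TNFAIP3 14.0, 13.1, 14.1 and 13.3 CPM (0.01 ± 0.13, edgeR adjusted p = 0.974). The thin intervals allowed little: NFKB2 had 1.35, 2.09, 1.73 and 1.65 CPM with a 95% interval of -0.76 to 0.73, and RELB had 1.46, 1.92, 1.16 and 1.83 CPM with one of -0.91 to 0.62. In H3K27me3 the NFKBIE interval had 143, 152, 158 and 146 CPM, overlapping, and a log2 fold change of 0.04 ± 0.061 (-0.08 to 0.16, edgeR adjusted p = 0.834). This value depended on scaling: without TMM, by library size only, it was 0.20 and passed (edgeR adjusted p = 0.00938).

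Chromatin around the genes was examined over each gene with 50 kb on either side. The surroundings of RELA, NFKB2, RELB and NFKBIE held 20 to 34 H3K4me3 intervals each, overlapping ones included, against 4 each around NFKB1, REL and NFKBIA. Listed H3K4me1 intervals were most numerous around TNFAIP3, at 37, and fewest around BIRC3, at 1, among the 9 genes outside the gap that holds TNF. Merged where they overlap, they made 10 loci around TNFAIP3, against 12 around RELB from 27 listed intervals.

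**Figure D4:**
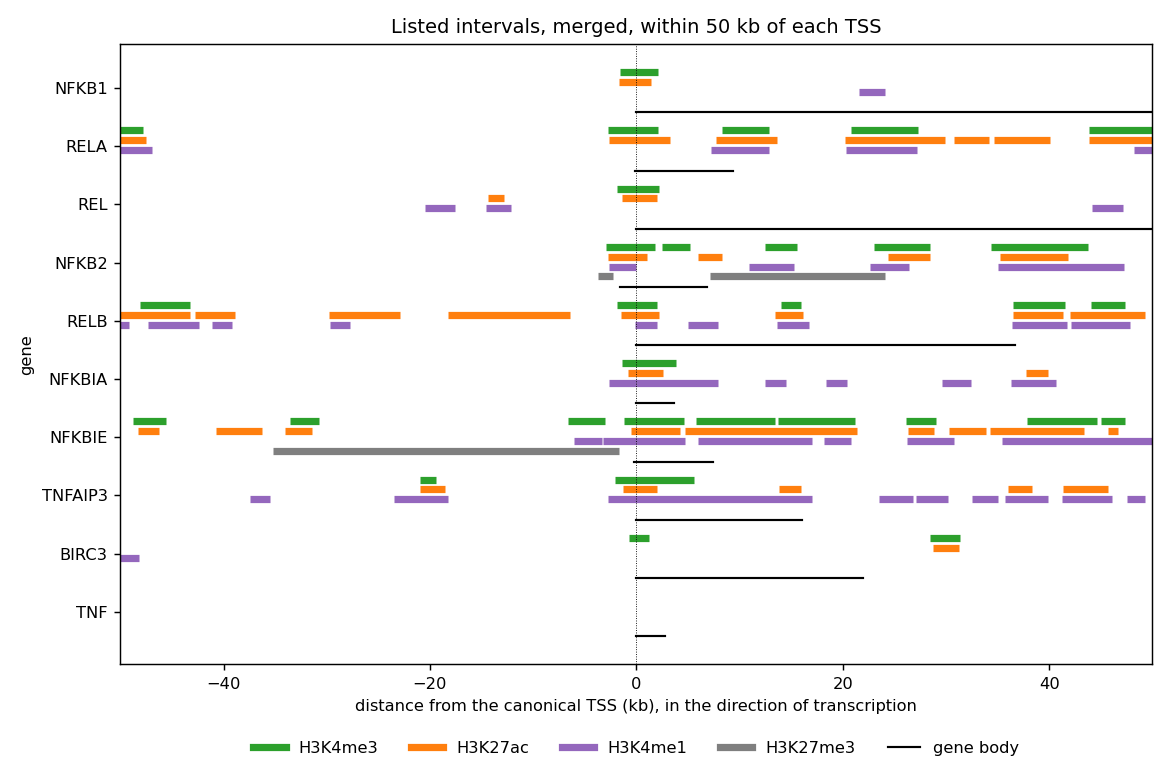
Listed intervals of each modification, merged where they overlap (coloured bars), within 50 kb of the canonical TSS of each gene, by distance in the direction of transcription in kb; the black line is the gene body. H3K4me3 and H3K27ac bars meet at the TSS of 8 genes, BIRC3 has H3K4me3 alone there, and TNF has no bar. NFKBIE has an H3K27me3 bar upstream, and NFKB2 has H3K27me3 bars from -3.73 to -2.23 kb and from 7.13 to 24.1 kb.

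Candidate distal sites were defined after the values were seen, as merged H3K27ac intervals in these surroundings over 2 kb from every protein-coding TSS. There were 14: 5 around TNFAIP3, 4 around RELB, 2 each around NFKBIA and NFKBIE, and 1 around REL. They were assigned by distance alone, and 13 of the 14 also carried an H3K4me1 interval. An H3K4me3 interval also lay at the TNFAIP3 sites centred at -19.7 and 60.1 kb from the TSS. The same held for the RELB sites at 14.8 and 45.7 kb and the NFKBIE site at 27.6 kb. The TNFAIP3 sites were centred at -19.7, 14.9, 37.2, 43.5 and 60.1 kb from its TSS, the one at 14.9 kb inside the gene. The single REL site was centred at -13.6 kb from the TSS, chr2:60867173-60868734, with 48 and 15 counts in DMSO and 13 and 30 with PR-957.

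None of the 14 distal sites passed in H3K27ac (edgeR, lowest adjusted p = 0.404), and 1 had an unadjusted p under 0.05, where 0.238% and 8.01% of all tested H3K27ac intervals did. Their log2 fold changes ran from -0.68 to 0.35, with a median of -0.21 against -7.88e-06 over all tested intervals, and 2 were above 0. The site with the unadjusted p under 0.05 was centred at -40.8 kb from the RELB TSS, within CLPTM1, chr19:44958742-44962575. It had 6.81 and 6.25 CPM in DMSO and 3.32 and 4.71 CPM with PR-957, both treated libraries below both controls, and a log2 fold change of -0.68 ± 0.26 (-1.19 to -0.17, unadjusted p = 0.00938, edgeR adjusted p = 0.404). The RELB promoter itself was higher in H3K27ac with PR-957, without passing, as given above.

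Over all intervals in these surroundings, 124 were tested in H3K4me3, 152 in H3K27ac, 153 in H3K4me1 and 14 in H3K27me3. edgeR called 3, all H3K4me1 intervals that were higher with PR-957, or 1.96% against 1.94% over all tested intervals (1.24% higher and 0.699% lower), and DESeq2 called 0 of the 150 with an adjusted p. They make up 2 loci. At the first, in an intron of NFKB1 62.9 kb from the TSS, chr4:102563531-102565051, counts were 19 and 35 in DMSO and 54 and 43 with PR-957, and the log2 fold change was 1.34 ± 0.38 (edgeR adjusted p = 0.0371). An overlapping interval gave 1.36 (edgeR adjusted p = 0.0277). At the second, 80.1 kb from the REL TSS within the neighbour PUS10, chr2:60961072-60962261, counts were 12 and 8 in DMSO and 26 and 34 with PR-957. The log2 fold change was 2.05 ± 0.55 (edgeR adjusted p = 0.0230). Scaled to depth, both DMSO libraries fell short of the filter's minimum count here. This interval was thus tested only because it was high with PR-957. At both loci the treated libraries lay above the controls, all counts were at most 55, and without DMSO replicate 1 or without PR-957 replicate 1 none of the 3 passed.

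The other genes of the pathway, 59 in 5 classes, were read from the same fits. Of those with an interval that was tested, 0 of 50 passed in H3K4me3, 0 of 46 in H3K27ac, 3 of 42 in H3K4me1 and 0 of 3 in H3K27me3. DESeq2 called 0 of the 46, 4 and 41 genes to which it gave an adjusted p in the first 3 modifications, and gave none in H3K27me3. The shares called over all tested intervals were 0.226%, 0.238%, 1.94% and 5.92%. At an unadjusted p under 0.05 there were 3, 4, 5 and 0 pathway genes, where all tested intervals gave 7.52%, 8.01%, 16.2% and 15.6%. Their median log2 fold changes were 0.02, 0.06, -0.08 and -0.15. By class, the 20 receptors and adaptors held 1 H3K4me1 interval that was higher and 1 that was lower, the 6 kinases 1 that was lower, and the 4 other IkB proteins, the 12 ubiquitin regulators and the 17 target genes 0.

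The 3 genes called in H3K4me1 act upstream of the IkB proteins. MAP3K7 encodes TAK1, the kinase that activates the IKK complex, and rose from 7 and 12 counts in DMSO to 38 and 25 with PR-957 (log2 fold change 2.23 ± 0.55, edgeR adjusted p = 0.0100). Its interval lay 303 bp from an alternative TSS and not over the canonical one. Scaled to depth, DMSO replicate 1 fell short of the filter's minimum count there, so the interval was tested only with the help of the PR-957 libraries. MYD88, the adaptor of Toll-like and IL-1 receptors, fell from 5.89 and 5.98 CPM to 2.57 and 4.04 CPM (-0.81 ± 0.21, edgeR adjusted p = 0.0155), in an interval that also covers the TSS of ACAA1. IKBKE, which encodes an IKK-related kinase, fell from 19.4 and 18.5 CPM to 13.3 and 15.0 CPM (-0.42 ± 0.12, edgeR adjusted p = 0.0399). That both PR-957 libraries lay on one side of both DMSO libraries in each was part of the rule for naming them, and adds nothing. None of the 3 passed without DMSO replicate 1, without DMSO replicate 2 or without PR-957 replicate 1.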

How the data were processed

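Cut&Tag libraries of 4 histone modifications from MOLM-13 cells were analysed, without the 2 IgG samples. The labels give 72 h of treatment, where a legend of the paper gives a shorter time. The deposited files hold raw counts, whole numbers that the authors counted on 1 list of partly overlapping intervals per modification. Reads were aligned to hg38 with Bowtie2, and the methods name MACS2 or SEACR as peak caller without tying one to Cut&Tag. The submitters' processing notes list Trimmomatic 0.39, Bowtie2 2.2.5, Picard 2.27.1, SAMtools 1.7, SEACR 1.3 and deepTools 3.5.1. The counting tool and the treatment of duplicates are not given in the sources used here. Coordinates follow the interval lists.

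Each modification was fitted over its whole table with edgeR 4.0.16 in R 4.3.3 (filterByExpr with a minimum count of 10, TMM, quasi-likelihood test, Benjamini-Hochberg at 0.05). CPM use TMM-scaled totals. TSSs came from GENCODE release 44, and promoter windows from RefSeq (hg38). The genes, the pathway list and the tests were chosen with earlier results of these data known. All 10 genes are named; other pathway genes are named where they passed without overlap, up to 5 per modification by p, and the 2 genes with the nearest DMSO profile for 2 members (others are not reported here). Alternatives were DESeq2 1.42.0, other scaling (limma 3.58.1 for loess), filters, windows, GC offsets, a replicate block and leaving out each library. The fits were tested on simulated data. Of simulated 2-fold changes, 87% were recovered in H3K4me3, 62% in H3K27ac, 61.5% in H3K4me1 and 48.5% in H3K27me3. Of 1.5-fold changes the shares were 72%, 24%, 26.5% and 26%.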

Additional observations from a re-analysis of the deposited data

How the results depend on the processing

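With 2 libraries per treatment, small changes cannot be separated from replicate spread, and thin intervals (BIRC3 in H3K4me3, NFKB2 and RELB in H3K4me1) limit it further. Of 357 recomputed fold changes of the 9 genes with an interval, 327 kept their direction and side of the threshold. The number of genes called in H3K4me3, H3K27ac and H3K4me1 was 0 under every alternative run.

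In H3K27me3 the count of members went from 0 to 1 (NFKBIE) under library size only (log2 fold change 0.20) and under cyclic loess (0.17), and the count in the surroundings from 0 to 4 and 2. With a window of 5 kb, added after seeing the data, 1 pathway gene, TRADD, passed in H3K27me3, as lower. In H3K4me1 the pathway count of 3 became 1 under cyclic loess, 0 under DESeq2 and 0 with GC offsets, and 0 to 2 when leaving out 1 library. The count of 3 in the surroundings became 0 under cyclic loess, DESeq2, GC offsets and a mean count of at least 50 (where the 3 were not tested), and 0 to 3 when leaving out 1 library.

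The sign turned for these fold changes, none of which passed in any of these settings. RELA in H3K27ac was -0.033 with the interval highest per kb. In H3K4me1, NFKB2 was 0.029 under library size only and 0.11 with GC offsets, RELB 0.044 with a 5 kb window, NFKBIA 0.013 under library size only, 0.025 under loess and 0.014 with GC offsets, and TNFAIP3 -0.12 with GC offsets and -0.28 highest per kb. NFKBIE in H3K27me3 was -0.047 with GC offsets. Leaving out 1 library gave, in H3K4me3, -0.013 to 0.014 for NFKB1, -0.037 to 0.14 for RELA and -0.51 to 0.048 for BIRC3. In H3K27ac it gave -0.20 to 0.0018 for NFKB1, -0.021 to 0.26 for RELA and -0.11 to 0.18 for REL. In H3K4me1 it gave -0.31 to 0.32 for NFKB2, -0.54 to 0.12 for RELB, -0.18 to 0.078 for NFKBIA and -0.029 to 0.060 for TNFAIP3, and in H3K27me3 -0.030 to 0.087 for NFKBIE. The causes were not tested.

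The labels do not say whether same-numbered replicates were made together. Same-numbered deviations correlated at -0.0089 in H3K27ac, -0.0069 in H3K27me3 and 0.0068 in H3K4me1, but at 0.17 in H3K4me3. With the replicate block 0 members were called in every modification, and 2 pathway genes and 3 intervals of the surroundings in H3K4me1.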
